A study of Homo sapiens with 4 samples.

Results

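The keratin genes were taken as all protein-coding genes whose symbol is KRT followed by a number and, for some, a letter from A to C, which gave 55 of the 58884 genes in the deposited table. Their RNA was measured in TPC-1 and B-CPAP, established human cell lines of papillary thyroid carcinoma, in TPM, a transcript level scaled by gene length and by the total of the library. There were 4 libraries, namely TPC-1 at 37 °C, TPC-1 at 40 °C, B-CPAP at 37 °C and B-CPAP at 40 °C, so each combination of line and temperature was a group of 1. The flasks were submerged at the stated temperature, and the sources give different exposure times (15 min in the protocol for growth, 20 min in the design text, 24 h under treatment). Cells of the 37 °C groups were submerged as well. The estimated depth was 20704722 to 24466576 reads per library. In bulk libraries such as these, fewer cells that express a gene and less of its RNA per cell cannot be told apart.

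Keratins are the intermediate filament proteins of epithelial cells. A filament is built from heterodimers of a type I (acidic) and a type II (basic to neutral) keratin, and a keratin without a partner of the other type is known to be unstable as protein. Simple epithelia, the thyroid follicle among them, use mainly KRT8 with KRT18, often with KRT7 and KRT19. Stratified epithelia use KRT5 with KRT14 or KRT15 in the basal layer and KRT1 with KRT10 above it, and hair keratins form the hair shaft. Except for KRT18, the type I genes lie together on chromosome 17 and the type II genes on chromosome 12.

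Some usual markers of a differentiated thyroid or epithelial cell were low or at 0 in both lines. Others were expressed in at least 1 line. The thyroid transcription factor gene PAX8 measured 284.4 and 266.7 TPM in the TPC-1 libraries, 111.9 and 98.9 TPM in those of B-CPAP (37 °C and 40 °C here and in every pair of values that follows), whereas the iodide transporter gene SLC5A5 was listed at 0 in all 4 libraries. Thyroglobulin, TG, reached at most 0.75 TPM. Of the epithelial markers, the E-cadherin gene CDH1 reached at most 0.04 TPM and the splicing factor gene ESRP1 was listed at 0, while the mesenchymal filament gene VIM stood between 1708 and 2678 TPM. Of 9 thyroid markers 3 were tested, with limma calling 1 higher (NKX2-1) and 1 lower (PAX8) in B-CPAP. NKX2-1 was at 0 in TPC-1 but had 8.6 and 7.9 TPM in the B-CPAP libraries. Of 5 epithelial markers 2 were tested, with 1 higher (CLDN4) and 1 lower (ELF3). CLDN4 had 0 and 0.04 TPM in the TPC-1 libraries, 2.6 and 2.3 TPM in those of B-CPAP. ELF3 had 20.8 and 21.0 TPM in the TPC-1 libraries, 0.02 and 0 TPM in those of B-CPAP. Of all genes tested, 29.9% were called higher and 32.8% lower.

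Of the 55 keratin genes, 31 were listed at 0 in every library, 12 were above 0 in at least 1 library but never reached 1 TPM, and 12 reached 1 TPM in at least 1. A count of 0 reads, taken as fewer than 3, allows levels up to 0.10 to 0.40 TPM for those 31 genes, depending on the gene's length and the library. All 9 root sheath keratins were at 0, as were the stratified keratins KRT1, KRT6A, KRT6B, KRT6C, KRT9, KRT12, KRT16 and KRT76, the intestinal keratin KRT20 and 10 of the 17 hair keratins. The basal keratin KRT5 was at 0 except for 3 reads in TPC-1 at 40 °C (0.13 TPM), and its partner KRT14 was at 0 in TPC-1 but had 0.24 and 0.38 TPM in the B-CPAP libraries. KRT17, another basal and injury-associated keratin, was at 0 in TPC-1 but had 0.34 and 0.50 TPM in the B-CPAP libraries. KRT78, a keratin of type II, had 0.96 and 0.48 TPM in the TPC-1 libraries and 0.58 and 0.31 TPM in those of B-CPAP.

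**Figure D1:**
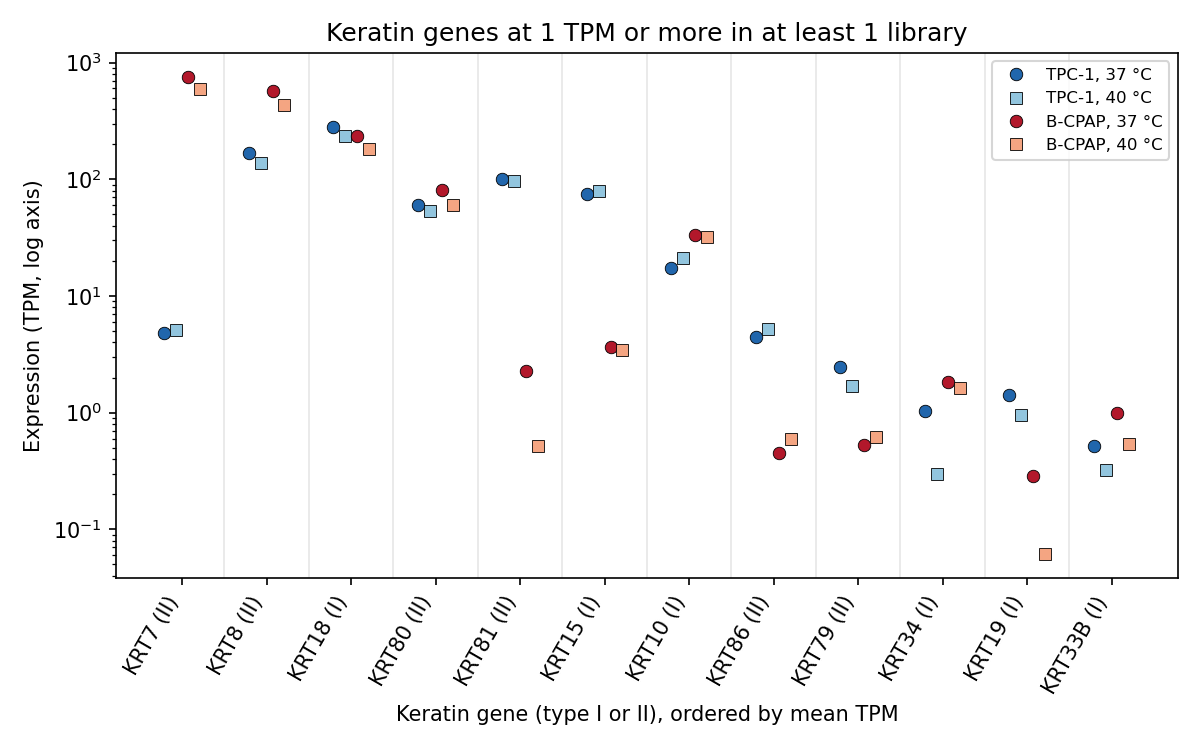
TPM (log axis) of the 12 keratin genes that reached 1 TPM, 1 point per library; dark circles are 37 °C and light squares 40 °C, in blue for TPC-1 and in red to orange for B-CPAP. KRT7 stands above 580 TPM in both B-CPAP libraries and near 5 TPM in both TPC-1 libraries, and KRT81 and KRT15 stand the other way round.

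Between the lines, 10 keratin genes passed a filter on low values (average level of 1 TPM or more) and could be tested with limma, a linear model fitted over all 14912 genes that passed this filter, with temperature as a block. KRT7, KRT8 and KRT10 were higher in B-CPAP, and KRT81, KRT15, KRT86, KRT79 and KRT18 were lower, all at an adjusted p under 0.05. With libraries centred on their median, 5 keratins were called higher and 4 lower, beside 35.4% and 29.6% of all genes. Differences between the lines were common, with 29.9% of all genes tested called higher and 32.8% lower in B-CPAP beside 3 and 5 of the 10 keratins. The share of keratins called higher was that of all genes and the share called lower was above it, which was not tested. The sizes were wider, with a median absolute log2 difference of 1.33 for the 10 keratins and 0.67 for all genes tested. A gene's own spread in this fit is how far the difference between lines varied between the temperatures (1 residual degree of freedom). Limma moves it towards the spread of other tested genes of like level, so standard errors and p-values rest on other genes too. The same log2 difference of KRT7 had a limma adjusted p of 1.93e-05 as fitted and 4.55e-23 with protein-coding genes alone. The p-values hold no spread between separate cultures of a group.

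KRT7, a type II keratin of simple and glandular epithelia (ENSG00000135480, chromosome 12, 52232520 to 52252186, plus strand), held the largest difference among the keratins. It measured 4.84 and 5.15 TPM in the TPC-1 libraries, 754.2 and 588.9 TPM in those of B-CPAP, so that it was a minor keratin of the first line and the leading keratin of the second as deposited. The TPM ratio of B-CPAP to TPC-1 was 156 at 37 °C (95% counting interval 130 to 188) and 114 at 40 °C (95.5 to 138). The log2 difference was 6.80 ± 0.13 (SE, limma adjusted p = 1.93e-05), the 30th largest of 14912 by size. The antisense gene KRT7-AS, which shares 282 exon bases with KRT7, measured 0.59 and 0 TPM in the TPC-1 libraries, 5.46 and 5.57 TPM in those of B-CPAP. As the libraries keep no strand, reads of the shared bases cannot be assigned to either gene.

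KRT19, the type I keratin that often accompanies KRT7 in simple epithelia, did not follow it. It measured 1.42 and 0.96 TPM in the TPC-1 libraries, 0.29 and 0.06 TPM in those of B-CPAP, from 20, 13, 5 and 1 reads, and was below the filter for testing. KRT7 thus stood at 754.2 TPM beside 0.29 TPM of KRT19 in B-CPAP at 37 °C.

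KRT8 and KRT18 are the obligate pair of simple epithelia, and only the first differed strongly between the lines. KRT8 (type II; ENSG00000170421, chromosome 12, 52897187 to 52949954, minus strand) measured 168.0 and 138.9 TPM in the TPC-1 libraries, 569.8 and 431.0 TPM in those of B-CPAP, with no overlap between the lines. Its log2 difference was 1.69 ± 0.07 (limma adjusted p = 8.89e-05). KRT18 (type I; ENSG00000111057, chromosome 12, 52948871 to 52952901, plus strand) measured 283.1 and 235.9 TPM in the TPC-1 libraries, 234.5 and 183.5 TPM in those of B-CPAP, where the lower TPC-1 library and the higher B-CPAP library nearly met. Its log2 difference of -0.32 ± 0.07 passed the test (limma adjusted p = 0.0141), but not when libraries were centred on their median (-0.19, adjusted p = 0.162), without the intensity trend (0.0991), without the block (0.194) or when any 1 library was left out (-0.14 to -0.49). The KRT18 libraries that nearly met were of different temperatures. At the same temperature, the KRT18 ratio of B-CPAP to TPC-1 was 0.828 at 37 °C (counting interval 0.798 to 0.860) and 0.778 at 40 °C (0.745 to 0.812). The TPM ratio of KRT8 to KRT18 was 0.593 and 0.589 in TPC-1 and 2.43 and 2.35 in B-CPAP.

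The levels of this pair carry a limit of annotation. Their genes overlap on opposite strands and share 525 exon bases, and 39.7% of the 50-base stretches of the KRT8 transcript and 52.5% of those of KRT18 occur in transcripts of other genes (37 genes for KRT8 and 45 for KRT18). The 51 KRT8 pseudogenes in the table summed to 14.0 and 12.5 TPM in TPC-1 and to 7.45 and 11.9 TPM in B-CPAP, led by KRT8P12 (10.9, 10.4, 5.57 and 8.38 TPM), and the 67 KRT18 pseudogenes to at most 2.23 TPM in any library. How the authors treated reads that match several genes is not given in the sources used here.

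KRT81 and KRT86, the type II hair keratins that could be tested, were lower in B-CPAP, and KRT82, KRT84 and KRT85 were at 0 in every library. KRT81 (ENSG00000205426, chromosome 12, 52285913 to 52291534, minus strand) measured 99.6 and 95.8 TPM in the TPC-1 libraries, 2.29 and 0.52 TPM in those of B-CPAP. It was the third most abundant keratin of TPC-1 as deposited. The TPM ratio of TPC-1 to B-CPAP was 43.4 at 37 °C (interval 30.8 to 63.4) and 185 at 40 °C (89.4 to 461), the latter from 7 reads in B-CPAP, and the log2 difference was -5.46 ± 0.27 (limma adjusted p = 0.000124). KRT86, its near-identical neighbour (ENSG00000170442, chromosome 12, 52249300 to 52309163, plus strand), measured 4.49 and 5.21 TPM in the TPC-1 libraries, 0.45 and 0.60 TPM in those of B-CPAP (log2 difference -1.94 ± 0.21, adjusted p = 0.00123). KRT83, the third closely related gene, had 3 reads in TPC-1 at 37 °C and 0 in the other libraries.

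KRT81 and KRT86 are shown side by side because reads from part of their length cannot be told apart. Over the 8 coding exons of equal length, 36 of 1279 bases differed (97.2% identical), and 44.6% of the 50-base stretches of the KRT81 transcript and 39.2% of those of KRT86 occur in another gene's transcripts.

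Coding exons 2 and 3 do not differ between KRT81 and KRT86 at any base. A stretch of 100 bases of coding exon 2 (GRCh38, from GENCODE 29 transcripts; KRT81 chr12:52290137-52290236, minus strand; KRT86 chr12:52303150-52303249, plus strand) is printed with that of KRT83 (chr12:52319215-52319314, minus strand), in which capitals mark the 7 bases that differ from both.
KRT81 and KRT86: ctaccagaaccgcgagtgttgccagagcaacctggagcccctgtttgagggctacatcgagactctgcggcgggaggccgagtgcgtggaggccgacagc
KRT83: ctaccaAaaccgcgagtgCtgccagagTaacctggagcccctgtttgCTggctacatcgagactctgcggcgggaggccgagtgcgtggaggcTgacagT

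A read from exon 2 therefore fits KRT81 and KRT86 equally, and the low level of KRT86 beside a high one of KRT81 in TPC-1 is uncertain.

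The hair keratins of type I were low in both lines, at no more than 1.84 TPM in any library. KRT34 measured 1.04 and 0.30 TPM in the TPC-1 libraries, 1.84 and 1.63 TPM in those of B-CPAP, from 11, 3, 24 and 20 reads, and its difference between lines missed the threshold (log2 difference 0.75 ± 0.27, limma adjusted p = 0.0625). KRT33B stood at 0.51 and 0.32 TPM and at 1.001 and 0.53 TPM, KRT31 at 0.31 TPM in TPC-1 at 37 °C only, and KRT32 at 0.47 and 0.59 TPM in TPC-1 only. Of the 94 genes for keratin-associated proteins, which embed hair keratins in the shaft, 6 were above 0 and only KRTAP2-3 reached 1 TPM, having measured 0.38 and 0.99 TPM in the TPC-1 libraries, 7.96 and 4.74 TPM in those of B-CPAP.

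KRT15 and KRT10, stratified keratins of type I, differed in opposite directions. KRT15, a keratin of basal cells (ENSG00000171346, chromosome 17, 41513743 to 41522529, minus strand), measured 74.9 and 78.7 TPM in the TPC-1 libraries, 3.64 and 3.42 TPM in those of B-CPAP. Its log2 difference was -4.10 ± 0.12 (limma adjusted p = 3.90e-05), and the spread between temperatures within a line was far smaller than the gap between lines. Its usual type II partner KRT5 was, as above, at or near 0. KRT10, a keratin of suprabasal cells (ENSG00000186395, chromosome 17, 40818117 to 40822595, minus strand), measured 17.4 and 21.0 TPM in the TPC-1 libraries, 33.3 and 32.2 TPM in those of B-CPAP (log2 difference 0.75 ± 0.13, adjusted p = 0.00538), while its partner KRT1 was at 0 throughout. The call for KRT10 did not hold when any 1 library was left out (0.62 to 0.87, adjusted p from 0.0841 to 0.164). TMEM99, which shares 56 exon bases with KRT10 on the other strand, measured 8.54 and 13.6 TPM in the TPC-1 libraries, 26.0 and 21.4 TPM in those of B-CPAP.

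KRT80, a type II keratin found in many epithelia, was abundant in both lines. It measured 60.7 and 53.8 TPM in the TPC-1 libraries, 81.2 and 60.5 TPM in those of B-CPAP. The ranges of the lines overlapped across temperatures, while at each temperature the B-CPAP value was higher. The TPM ratio of B-CPAP to TPC-1 was 1.34 at 37 °C (counting interval 1.26 to 1.42) and 1.12 at 40 °C (1.05 to 1.21). The log2 difference of 0.29 ± 0.10 missed the threshold (limma adjusted p = 0.0599). KRT80 passed under 5 of 15 alternatives. The limma adjusted p was 0.0238 for genes averaging 5 TPM or more, 0.0183 for protein-coding genes alone and 0.0174 with median centring. It was 0.0364 without mitochondrially encoded genes and 0.0116 with the GC adjustment. That adjustment removed the GC trend of the difference between temperatures, not one of the difference between lines. KRT79, a keratin of the sebaceous duct and hair canal, measured 2.47 and 1.70 TPM in the TPC-1 libraries, 0.53 and 0.62 TPM in those of B-CPAP (log2 difference -0.96 ± 0.26, adjusted p = 0.0253), from 10 to 38 reads. Without either B-CPAP library its adjusted p was 0.0998 or 0.0851.

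**Figure D2:**
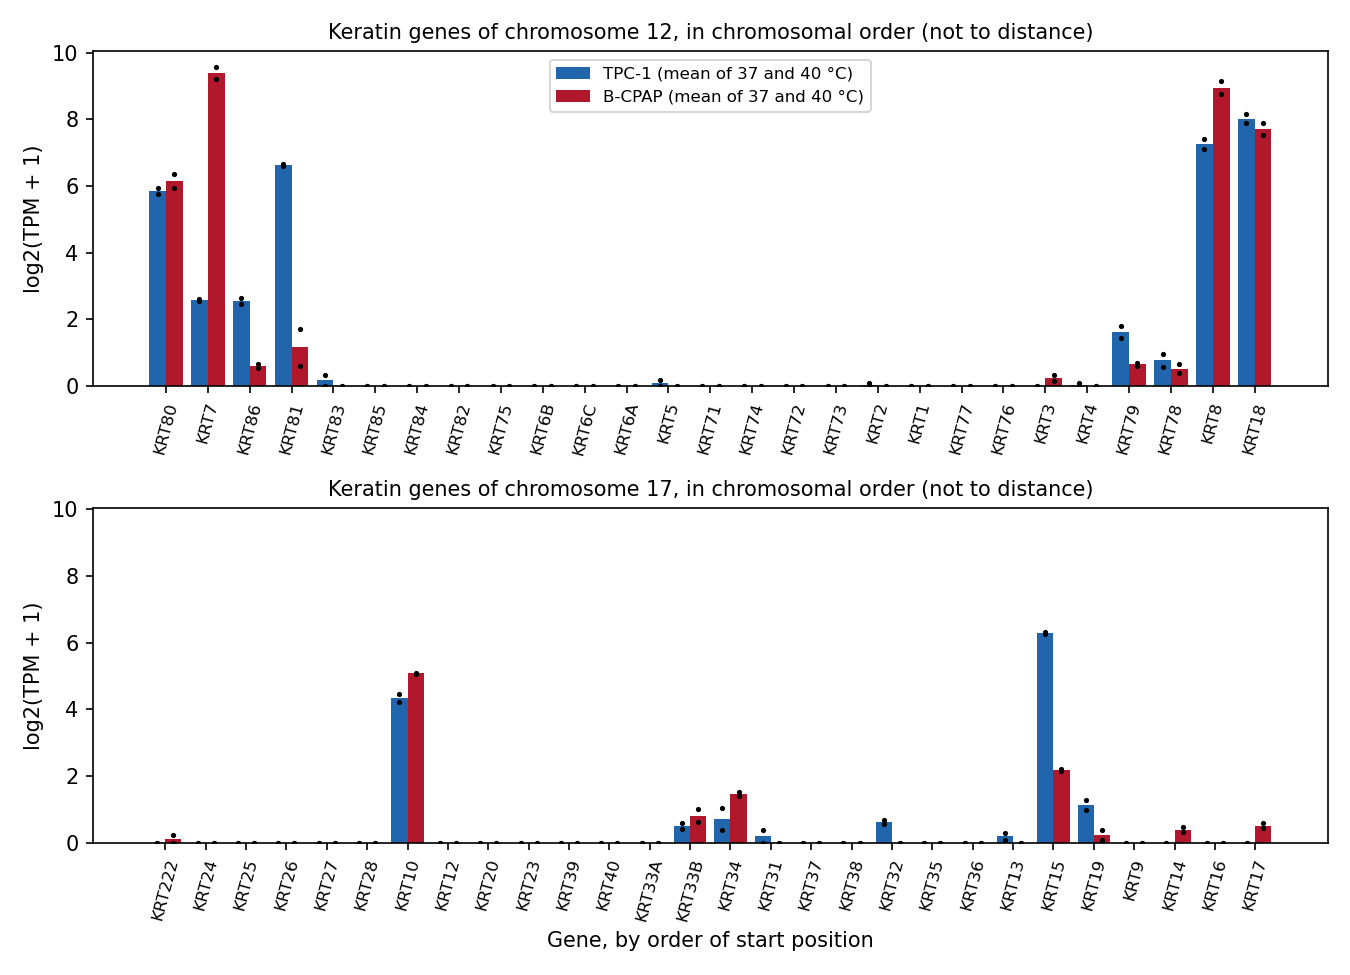
Mean log2(TPM + 1) of each keratin gene in TPC-1 (blue) and B-CPAP (red), with a dot per library, in order along chromosomes 12 (upper panel) and 17 (lower panel). Within chromosome 12, KRT7 is high in B-CPAP while the neighbouring KRT86 and KRT81 are high in TPC-1; most genes of both clusters are at 0.

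The genes with the widest differences between the lines were close neighbours on chromosome 12. KRT7 and KRT81 lie 34 kb apart and differed in opposite directions, by 6.80 and -5.46 on the log2 scale. KRT80, 41 kb from KRT7 on its other side, did not pass the test. On chromosome 17, KRT15 stood near 75 TPM in TPC-1, while its neighbours KRT13 and KRT19 stood at no more than 0.23 and 1.42 TPM in any library.

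Summed over all members, keratin RNA came to 720.8 and 639.2 TPM in TPC-1 and to 1684 and 1305 TPM in B-CPAP. Simple keratins made up 63.5% and 59.6% of that sum in TPC-1 and 92.6% and 92.2% in B-CPAP. Hair keratins made up 14.8% and 16.0% in TPC-1 and 0.33% and 0.25% in B-CPAP. Shares and order depend on the length used. Rescaled to the principal transcript (explained with the type ratio), the sums were 1734 and 1514 in TPC-1. On that scale simple keratins held 75.8% and 72.2% in TPC-1 and 96.9% and 96.7% in B-CPAP. Hair keratins held 6.19% and 6.81% in TPC-1 and 0.12% and 0.09% in B-CPAP. As deposited, the 4 leading genes were KRT18, KRT8, KRT81 and KRT15 in TPC-1 (86.8% and 85.95% of the sum) and KRT7, KRT8, KRT18 and KRT80 in B-CPAP (97.35% and 96.8%). On the rescaled levels KRT8 led KRT18 and KRT15 stood before KRT81 in TPC-1, and KRT8 led KRT7 in B-CPAP.

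The balance of the types differed between the lines. Type I keratins summed to 379.5 and 337.9 TPM and type II keratins to 341.4 and 301.3 TPM in TPC-1, a type II to type I ratio of 0.8996 and 0.892. In B-CPAP the sums were 275.2 and 222.4 TPM for type I and 1409 and 1083 TPM for type II, a ratio of 5.12 and 4.87. TPM as deposited match a length over all annotated exons of a gene, which for KRT8 is 6881 bases against 1755 in its principal transcript, and for KRT15 is 7069 against 2394. Rescaled to the principal transcript, the ratio was 0.958 and 0.913 in TPC-1 and 7.05 and 6.78 in B-CPAP, and KRT8 to KRT18 was 1.027 and 1.018 in TPC-1 and 4.20 and 4.06 in B-CPAP. On that scale KRT8 was the leading keratin of both lines. It came to 658.7 and 544.5 in the TPC-1 libraries and to 2234 and 1690 in those of B-CPAP, with KRT7 next in B-CPAP at 1760 and 1374. The rescaled values take all reads of a gene as coming from its principal transcript. Only keratins were rescaled and library totals were not set anew, so these values are not TPM.

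**Figure D3:**
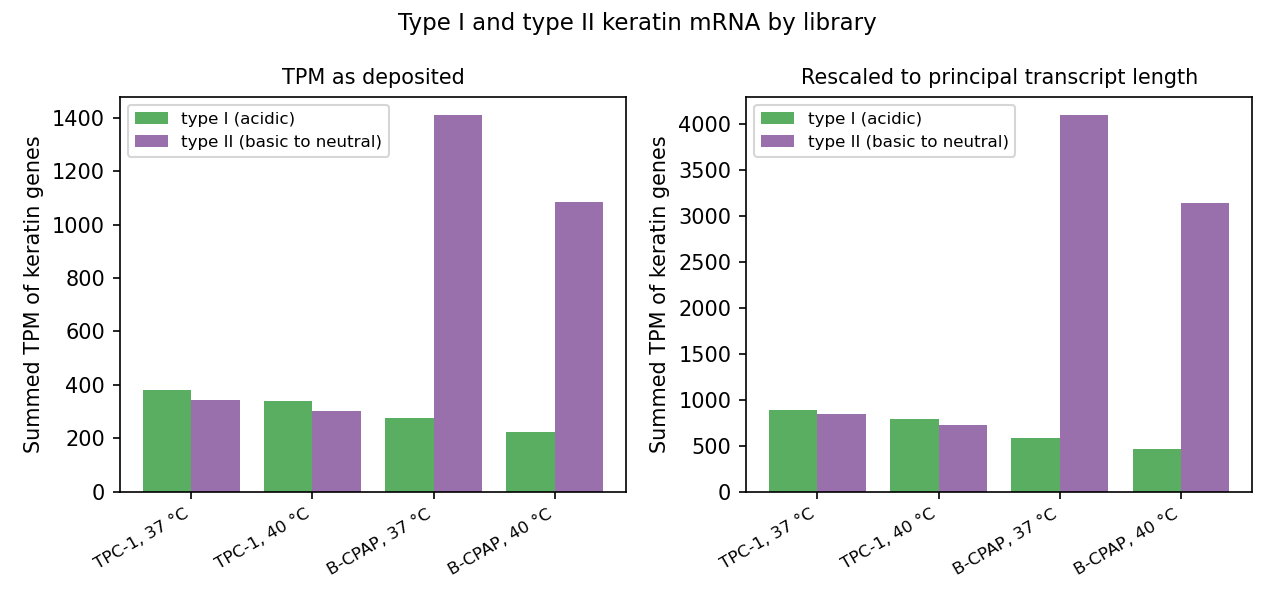
Summed TPM of type I (green) and type II (purple) keratin genes in each library, with TPM as deposited on the left and rescaled to the principal transcript length on the right. The bars of a library are nearly level in TPC-1, and type II exceeds type I by 4.87 to 7.05 times in B-CPAP over both scales.

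At 40 °C against 37 °C, over both lines with the line as a block, limma called 0 of the 10 keratins and 0 of 14912 genes (0%). An unadjusted p under 0.05 was found for 3 keratins, KRT8, KRT18 and KRT80, all lower at 40 °C, beside 19.5% of all genes. KRT8 had log2 differences of -0.27 (TPC-1) and -0.40 (B-CPAP), and of -0.34 ± 0.07 over both lines (limma adjusted p = 0.218). KRT18 had -0.26 and -0.35 (both lines -0.31 ± 0.07, adjusted p = 0.218), and KRT80 had -0.17 and -0.42 (both lines -0.29 ± 0.10, adjusted p = 0.242). KRT8 and KRT18 did pass when genes averaging 5 TPM or more (adjusted p = 0.0255 and 0.0333) or protein-coding genes alone (0.0129 and 0.0215) were fitted. Their log2 differences were unchanged in those fits. There 3.55% and 3.97% of all genes were called lower, and 867 of 10112 and 1350 of 11824 genes were called in either direction.

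Differences between temperatures moved with the GC content of transcripts over all genes. Tested keratins had a GC content of 51.3 to 62.7% (median 57.5%), against a median of 49.2% for tested protein-coding genes, and protein-coding genes in that range had median log2 differences of -0.09 (TPC-1) and -0.18 (B-CPAP). With values adjusted for the trend of the difference with GC content, KRT8 had -0.17 and -0.21, KRT18 -0.16 and -0.17, and KRT80 -0.07 and -0.24. Over both lines, these adjusted values gave KRT8 and KRT18 limma adjusted p-values of 0.5095 and 0.5196. The part of GC content in the keratin differences was not tested further.

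As 1 library stands for each temperature of a line, the differences within lines have no replicate check, and the intervals cover counting error only. Changes of 2-fold were counted on the log2(TPM + 1) scale. In TPC-1, a rise of 2-fold was seen at 40 °C for 0 of the 10 tested keratins (2.25% of all genes) and a drop of that size for 0 (1.23%). On the TPM scale KRT34 had a lower ratio of 0.286 (interval 0.0511 to 1.08), from 11 and 3 reads. The TPM ratio of 40 °C to 37 °C was 0.827 for KRT8 (interval 0.798 to 0.857), 0.833 for KRT18 (0.801 to 0.867), 0.887 for KRT80 (0.824 to 0.954), 0.962 for KRT81 (0.885 to 1.05), 1.06 for KRT7 (0.820 to 1.38) and 1.21 for KRT10 (1.01 to 1.45). The interval excluded 1 for KRT8, KRT18, KRT80 and KRT10 in this line. KRT15 stood at 74.9 and 78.7 TPM, with an interval of the ratio that included 1.

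In B-CPAP, a rise of 2-fold on the log2(TPM + 1) scale was seen for 0 of the 10 (2.78% of all genes) and a drop of that size for 1 (1.13%). The gene was KRT81, at 2.29 and 0.52 TPM from 33 and 7 reads (ratio 0.226, interval 0.0845 to 0.520). Its log2 difference was -1.12, and -0.82 with values adjusted for GC content. The abundant keratins were also lower at 40 °C: the ratio was 0.781 for KRT7 (0.765 to 0.796), 0.756 for KRT8 (0.743 to 0.770), 0.782 for KRT18 (0.751 to 0.814) and 0.745 for KRT80 (0.701 to 0.791). KRT10 and KRT15 had ratios of 0.968 and 0.942, with intervals that included 1. The median absolute log2 difference in B-CPAP was 0.25 for the 10 tested keratins and 0.28 for all genes tested. Whether the lines differ in their response to temperature could not be tested with 1 library per group; for KRT7 the ratios were 1.06 in TPC-1, from 120 and 122 reads, and 0.781 in B-CPAP.

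**Figure D4:**
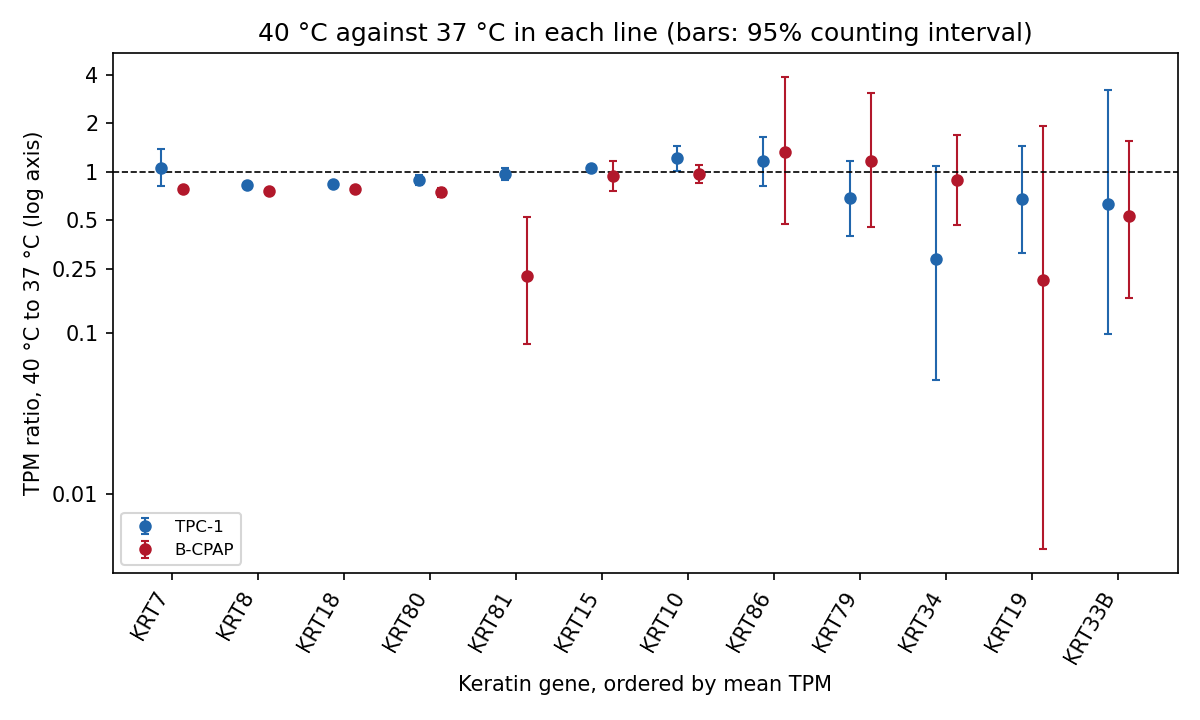
TPM ratio of 40 °C to 37 °C (log axis) for the 12 keratin genes that reached 1 TPM, in TPC-1 (blue) and B-CPAP (red); bars are 95% counting intervals and the dashed line marks a ratio of 1. KRT7, KRT8, KRT18 and KRT80 lie between 0.745 and 0.782 in B-CPAP, and KRT81 in B-CPAP lies at 0.226 with a wide interval.

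Plakin and desmosome genes, only some of which anchor keratin filaments, also differed between the lines. Of 20 plakin and desmosome genes, 10 were tested, and limma called 8 lower and 2 higher in B-CPAP, beside 32.8% and 29.9% of all genes (median log2 difference -1.32, against -0.05 for all genes). Desmoplakin, DSP, which ties keratin filaments to the desmosome, reached at most 0.44 TPM in any library. Plakoglobin, JUP, its partner in the desmosomal plaque, measured 74.9 and 64.7 TPM in the TPC-1 libraries, 0.41 and 0.38 TPM in those of B-CPAP (log2 difference -5.67 ± 0.14, limma adjusted p = 3.00e-05). PERP, a desmosomal membrane protein gene, measured 79.8 and 97.6 TPM in the TPC-1 libraries, 2.08 and 2.25 TPM in those of B-CPAP. The linker gene PLEC stood at 571.4 and 547.9 TPM and at 271.8 and 212.4 TPM, the desmosomal cadherin gene DSG2 at 90.1 and 96.8 TPM and at 51.6 and 85.0 TPM, and MACF1 at 51.4 and 51.3 TPM and at 15.0 and 22.9 TPM. The 2 higher in B-CPAP were EVPL, envoplakin, listed at 0 in TPC-1, with 13.9 and 11.7 TPM in the B-CPAP libraries, and PKP4 (chosen after its values were seen) at 20.0, 21.9, 31.4 and 36.1 TPM.

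All 5 tested genes of the hemidesmosome, the basal junction to which keratins attach, were called lower in B-CPAP, as were 32.8% of all genes. The largest difference was that of COL17A1, which measured 34.1 and 33.2 TPM in the TPC-1 libraries, 0.08 and 0.06 TPM in those of B-CPAP (log2 difference -5.02 ± 0.16, limma adjusted p = 5.01e-05). CD151 stood at 384.1 and 327.9 TPM and at 257.7 and 199.5 TPM, ITGA6 at 69.3 and 69.3 TPM and at 25.4 and 36.2 TPM, and DST at 10.6 and 10.6 TPM and at 2.54 and 6.39 TPM. PLEC belongs to this list as well as to the one before.

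A list of 19 epithelial regulator genes held transcription factor genes and the splicing factor genes ESRP1 and ESRP2. Of these, 7 were tested, all of them transcription factor genes. Limma called 5 lower and 1 higher in B-CPAP, beside 32.8% and 29.9% of all genes (median log2 difference -2.62). TP63, a master regulator of basal keratins, reached at most 0.04 TPM. TFAP2A measured 29.5 and 30.1 TPM in the TPC-1 libraries, 2.02 and 2.02 TPM in those of B-CPAP, ELF3 at 20.8 and 21.0 TPM and at 0.02 and 0 TPM, and TFAP2C at 14.6 and 16.0 TPM and at 0 in both B-CPAP libraries. KLF5 did not pass (3.96 and 4.38 TPM, 3.86 and 5.95 TPM; log2 difference 0.17, adjusted p = 0.469). The gene called higher was MSX2, a homeobox gene, listed at 0 in TPC-1, with 3.86 and 3.41 TPM in the B-CPAP libraries (named after its values were seen).

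Cornified envelope genes, which serve the last stage of keratinocyte differentiation, were mostly off, with 6 of 17 at 0 in every library and 3 tested, of which 1 was called higher and 1 lower (29.9% and 32.8% of all genes). Involucrin, IVL, was at 0 in TPC-1 but had 107.9 and 108.1 TPM in the B-CPAP libraries (log2 difference 6.77 ± 0.14, limma adjusted p = 2.21e-05). FLG, the gene of filaggrin, which bundles keratin filaments, measured 58.5 and 74.9 TPM in the TPC-1 libraries, 4.02 and 5.37 TPM in those of B-CPAP (-3.57 ± 0.12, adjusted p = 5.01e-05). SBSN did not pass (3.41 and 1.92 TPM, 1.28 and 1.30 TPM; adjusted p = 0.0764), and CNFN was not tested (1.62 and 0.28 TPM, 0.22 and 0.93 TPM). Of the 7 markers of basal and squamous cells, which include IVL, DSG3, DSC3 and LY6D were at 0 in every library, and SFN did not pass (3.29 and 2.51 TPM, 1.54 and 1.53 TPM; adjusted p = 0.0569).

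Among 16 other intermediate filament genes, VIM and the lamin genes were abundant in both lines, while DES, PRPH, NEFM, NEFH and INA reached at most 1.05 TPM in any library. Of the 9 tested, limma called 5 higher and 2 lower in B-CPAP, beside 29.9% and 32.8% of all genes. VIM, vimentin, measured 1847 and 1708 TPM in the TPC-1 libraries, 2678 and 2588 TPM in those of B-CPAP (log2 difference 0.57 ± 0.05, adjusted p = 0.000656). As deposited, VIM stood above the keratin sum of each library. It was not rescaled to its principal transcript, on which scale the keratin sums of B-CPAP came to 4671 and 3597. The neurofilament gene NEFL was at 0 in TPC-1 but had 64.3 and 69.6 TPM in the B-CPAP libraries (6.09 ± 0.15, adjusted p = 2.79e-05), and NES, nestin, stood at 0.27 and 0.34 TPM and at 4.50 and 4.85 TPM. The lens filament gene BFSP1 measured 10.2 and 10.4 TPM in the TPC-1 libraries, 1.19 and 0.98 TPM in those of B-CPAP, and the lamin gene LMNA at 684.7 and 608.5 TPM and at 461.4 and 370.0 TPM, both called lower. Of the 6 mesenchymal markers, 4 were called higher in B-CPAP, among them FN1 (1195 and 1427 TPM, 4788 and 5382 TPM) and CDH2 (45.9 and 46.4 TPM, 111.2 and 142.4 TPM), and ZEB1 was called lower (20.3 and 22.3 TPM, 3.63 and 6.69 TPM).

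At 40 °C against 37 °C, limma called 0 genes of any of these lists. As it called 0 of all 14912 genes tested, this count says nothing particular about the lists.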

How the data were processed

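Per the labels' protocols, the kits were RNeasy Plus (RNA) and TruSeq RNA Library Prep Kit v2, which does not mark strand. The submitters' processing notes name Trimmomatic 0.38, FastQC, MultiQC and featureCounts 2.0.0, with build GRCh38. The aligner and release of the annotation were not given in the sources used here. All deposited values are TPM. Symbols came from a name table (58472 of 58884 IDs) and gene types, lengths and GC content from GENCODE 29 (58611 IDs, 99.5%). TPM times exon length rose in steps of 1 read (90.7 to 92.2% of low values, those of 20 reads or fewer, lay within 0.02 of a whole number, and 65.8 to 67.8% of those from 20 to 200 reads, so lengths are close to the authors' but not the same for every gene), which gave estimated reads and Clopper-Pearson 95% intervals of ratios between 2 libraries; these cover counting error only.

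Values were log2(TPM + 1), which understates changes of low genes. Genes averaging 1 TPM or more were tested with limma 3.58.1 (R 4.3.3), line and temperature both in the model, with an intensity trend, two-sided, Benjamini-Hochberg adjusted over all tested genes at 0.05. The fit was tested on simulated data. The labels do not name separate cultures. The principal transcript is the shortest of the best APPRIS rank. Members at 1 TPM or more in any library were named. Of each related list, genes were named mainly from the 4 highest and the 3 that differed most between lines, and some of these are not named. Members and lists were chosen with earlier results of these data known. Alternatives were other pseudocounts, filters, gene types, scalings, a GC adjustment, no trend, no block and 1 library left out. Classes of keratins were set by hand. A marker gene and a sequence window are not reported here.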

Additional observations from a re-analysis of the deposited data

How the results depend on the processing

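KRT7, KRT8, KRT15, KRT81 and, where tested, KRT86 passed the comparison of lines under each of the 15 alternatives run (14 for KRT86, which a mean TPM of at least 5 removes), in 1 direction. KRT18 passed under 8 of 15, KRT10 under 11 of 15 and KRT79 under 11 of 14; KRT80 and KRT34, not called as fitted, passed under 5 of 15 and 4 of 14. The number of keratins called higher in B-CPAP was 5 in place of 3 with protein-coding genes alone and with centring on the median. The number called lower was 3 in place of 5 at a mean TPM of at least 5, where 7 keratins were tested. Over all genes, calls in either direction came to 9349 of 14912 as fitted and 8618 of 11824 with protein-coding genes alone. They came to 9702 of 14912 with centring on the median and 7330 of 10112 at a mean TPM of at least 5. With 1 library left out, the fits had no block and set 2 libraries against 1. The number of genes they call is therefore not comparable with that of the full fit. For 40 °C against 37 °C over both lines, 2 keratins, KRT8 and KRT18, were called lower at a mean TPM of at least 5 (3.55% of all genes) and with protein-coding genes alone (3.97%). Leaving out a library there leaves unequal lines in the groups, so those fits say nothing of temperature. In TPC-1, 1 keratin, KRT34, stood lower by 2-fold with a pseudocount of 0.1, and by 1.5-fold; in B-CPAP 0 did with a pseudocount of 5 and with the GC adjustment. The type II to type I ratio rescaled to the principal transcript, a choice made after seeing the data, was 0.958 and 0.913 in TPC-1 and 7.05 and 6.78 in B-CPAP. The labels give no replicate numbers to pair, and libraries were matched on the other factor as a block. Without it 3 keratins were called higher and 4 lower between lines, beside 7469 of 14912 genes called in either direction. The 31 keratins at 0 are limited by depth, and TPM of low genes such as KRT34 rests on few reads. The cause of the changes was not tested.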
